A study of Mus musculus with 6 samples.

Results

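Transcripts of 10 genes of the transforming growth factor beta (TGF-beta) pathway were measured by RNA-seq in mammary tumors of mice fed with or without DMHCA. The genes were taken by symbol from tables that hold 55385 genes per library, and 10 of 10 were found. They code for the ligands (Tgfb1, Tgfb2 and Tgfb3), the type I receptors (Tgfbr1, also called ALK5, and Acvrl1, also called ALK1), the type II receptor (Tgfbr2), the co-receptors betaglycan (Tgfbr3) and endoglin (Eng), the latency protein Ltbp1 and the intracellular inhibitor Smad7.

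TGF-beta is secreted in a latent form, bound by its own propeptide and by latent TGF-beta binding proteins that attach it to the extracellular matrix. Once released, it binds the type II receptor, which recruits and phosphorylates a type I receptor, and the type I receptor phosphorylates SMAD proteins that enter the nucleus. TGF-beta is known for driving matrix production by fibroblasts, and in mammary epithelium it restrains growth early and favors invasion in advanced tumors, while endoglin and ALK1 are best known from endothelial cells.

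All libraries were labelled as coming from female NeuT/ATTAC mice. These mice carry a constitutively active rat ErbB2 gene under the MMTV promoter, which acts in mammary epithelium, and an FKBPv-caspase-8 fusion under the FABP4 promoter, which acts mainly in fat cells. The dimerizer AP20187 activates the caspase, and part of the mammary fat is then replaced by fibrotic tissue. Injections of 0.4 mg/kg AP20187 began at 6 weeks of age. The DMHCA group received in addition, from 8 weeks of age, a diet with 0.05% DMHCA (100 mg/kg), a sterol that activates the nuclear receptor LXR. The control group did not receive DMHCA, and its treatment label can be read as AP20187 with vehicle or as vehicle alone. Here the controls were taken to have received AP20187, as the study describes. Age at tumor collection was not given in the labels. Each group had 3 libraries, with 46358654 to 63420620 expected counts per library.

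DMHCA libraries 1 and 3 were nearly identical. Their biological coefficient of variation (the part of the spread that sampling of reads does not give) was 0.0327, against 0.376 to 0.579 for the other 5 pairs of libraries within a group. They were therefore counted as 1 sample, which left 3 control samples and 2 DMHCA samples. An exact permutation test of 3 against 2 samples cannot give p below 0.1. The tissue label names mammary gland fibrosis, but epithelial markers were far more abundant than fibroblast markers in every library. The summed level of 8 epithelial markers was 4775, 4149 and 3560 TPM (transcript abundance per length, scaled to the same sum in every library) in control libraries 1, 2 and 3 and 5384, 5617 and 5406 TPM in DMHCA libraries 1, 2 and 3. The summed level of 8 fibroblast markers was 280, 169 and 857 TPM in the controls and 245, 172 and 257 TPM with DMHCA. Control library 3 stood apart from the other libraries in its fibroblast, lymphocyte, adipocyte and myoepithelial markers, as given with the marker lists.

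With DMHCA, Tgfb1 and Eng had the smallest p-values of the 10 genes, Tgfb2 came next, and none passed the test. By edgeR's quasi-likelihood test on the expected counts of all genes with Benjamini-Hochberg adjustment, an adjusted p under 0.05 was reached by 0 of 10 members and by 0 of the 19427 genes tested (0%), the lowest adjusted p being 0.644. At an unadjusted p under 0.05, 1478 genes passed, 3.53% of all genes being higher and 4.08% lower with DMHCA. Of the members, 2 of 10 passed as higher (Tgfb1 and Eng) and 0 as lower. With libraries left out, the members at an unadjusted p under 0.05 were Tgfb1 and Tgfb2 without control library 1 (6.70% of all genes tested), 0 without control library 2 (9.40%) and Smad7, lower, without control library 3 (5.43%). They were Eng without DMHCA library 2 (4.26%) and Tgfb1, Tgfb2 and Ltbp1 without DMHCA libraries 1 and 3 (5.17%). The 10 members had a median log2 fold change of 0.19, against −0.03 for all genes tested, and it depended on single samples, being 0.465 without control library 1, 0.064 without control library 2 and 0.047 without DMHCA libraries 1 and 3.

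Normalized counts of the DMHCA samples lay wholly above those of the controls for 2 of 10 members, Tgfb1 and Tgfb2, where 13.8% of all genes tested did so. For 0 of 10 members they lay wholly below, against 12.2% of all genes. With fewer samples more genes are separated. The groups did not overlap in either direction for 5 members without control library 2, where 42.8% of all genes tested did not. With 1 DMHCA sample left this was so for 7 members without DMHCA library 2 (49.8% of all genes) and for 5 without DMHCA libraries 1 and 3 (56.1%). In TPM, 4 of 10 members (Tgfb1, Tgfb2, Tgfbr2 and Eng) were higher without overlap, and so were 20.3% of all genes tested. TPM was shifted as a whole. The median difference in log2(TPM + 1) between DMHCA and control was 0.11 over all genes tested, so that TPM differences are read against this shift.

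DESeq2 was also run. With the 6 libraries taken as separate samples it gave 4.37% of 20168 genes an adjusted p under 0.05, among them 1 of 10 members, Eng (adjusted p = 0.0347). On the 5 samples DESeq2 called 1.20% of 20272 genes and 0 of 10 members, and the adjusted p of Eng was 0.323. The other alternatives that kept both DMHCA samples gave Eng an adjusted p of 0.242 to 0.864. The lowest was that of edgeR without a filter on low counts, the highest that of edgeR without control library 3.

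**Figure D1:**
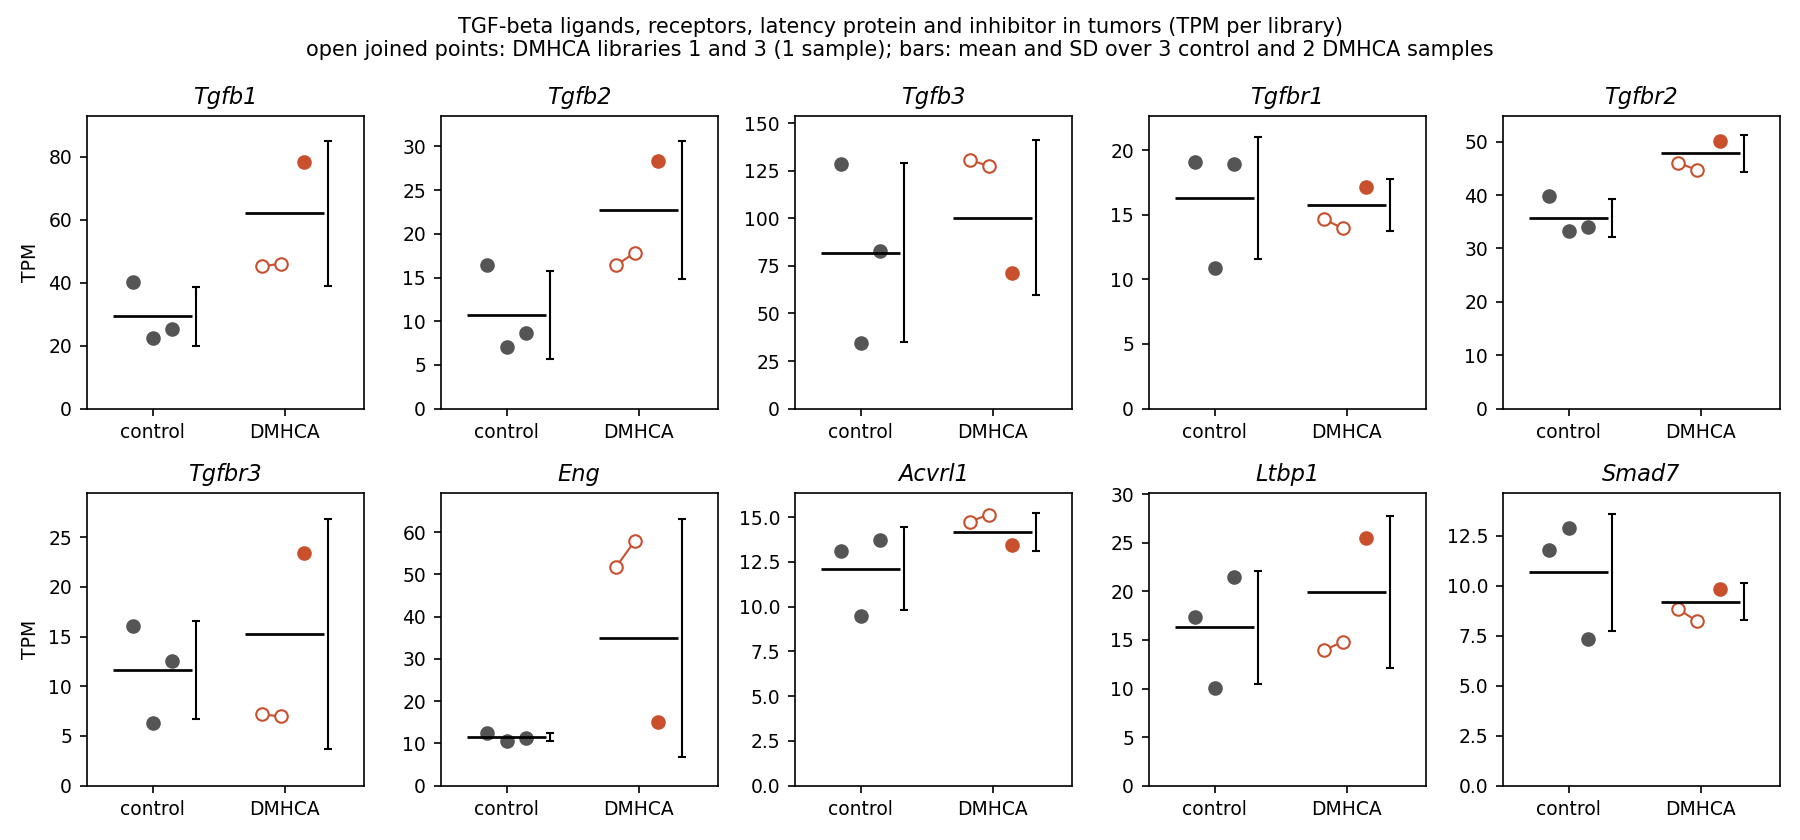
Level of each of the 10 genes in TPM (vertical axis, from 0) in control libraries 1, 2 and 3 (grey, left to right) and in the DMHCA group, where joined open points are libraries 1 and 3 and the filled point is library 2. Horizontal lines are means and bars SD over 3 control and 2 DMHCA samples. Eng was at 51.8 and 57.9 TPM in DMHCA libraries 1 and 3 and at 10.6 to 15.1 TPM in the other libraries.

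The ligands were examined first. Tgfb1 (ENSMUSG00000002603, GRCm38 chromosome 7, 25687002 to 25705077, plus strand) codes for TGF-beta1, the ligand most often linked with fibrosis. Its level was 40.1, 22.5 and 25.2 TPM in control libraries 1, 2 and 3 and 45.1, 78.4 and 46.1 TPM in DMHCA libraries 1, 2 and 3. Every DMHCA library was above every control library, DMHCA library 2 by far the most and DMHCA libraries 1 and 3 only slightly above control library 1. The mean was 29.3 ± 9.49 TPM in the controls (SD, n = 3) and 62.0 ± 23.2 TPM with DMHCA (SD, n = 2). In normalized counts the controls were at 3021, 2270 and 2075, DMHCA libraries 1 and 3 together at 3539 and DMHCA library 2 at 5592. The log2 fold change from edgeR was 0.89 (standard error 0.31, unadjusted p = 0.0241), and it did not pass after Benjamini-Hochberg adjustment in edgeR (adjusted p = 0.644). Without DMHCA library 2 it was 0.566 (unadjusted p = 0.178), and without DMHCA libraries 1 and 3 it was 1.174 (unadjusted p = 0.0173).

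Tgfb2 (ENSMUSG00000039239, chromosome 1, 186622792 to 186705989, minus strand) codes for TGF-beta2, the ligand that depends most on betaglycan for receptor binding. It was at 16.5, 7.08 and 8.63 TPM in the controls and at 16.4, 28.3 and 17.8 TPM in DMHCA libraries 1, 2 and 3. DMHCA library 2 was again the highest, whereas DMHCA library 1 taken alone was at the level of control library 1. The groups were separated only narrowly, with 2735 normalized counts in control library 1 and 2793 in DMHCA libraries 1 and 3 together. In edgeR, Tgfb2 had an unadjusted p of 0.0511 and a log2 fold change of 0.87 with a standard error of 0.37, and this fold change was 0.58 without DMHCA library 2 and 1.21 without control library 1.

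Tgfb3 (ENSMUSG00000021253, chromosome 12, 86056745 to 86079041, minus strand) codes for TGF-beta3, known in the mammary gland for its part in involution after lactation. Its level was 129, 34.7 and 82.8 TPM in the controls and 131, 71.5 and 127 TPM with DMHCA. The groups overlapped, since control library 1 matched DMHCA libraries 1 and 3 and DMHCA library 2 was below 2 of 3 controls. The controls alone spanned 2.76-fold in normalized counts. Tgfb3 had a log2 fold change of 0.18 with a standard error of 0.50 (unadjusted p = 0.726). It turned to −0.12 without control library 2 and to −0.41 without DMHCA libraries 1 and 3.

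Per length of transcript, Tgfb3 was the most abundant of the ligand transcripts in 4 of 5 samples. It made up 69.4%, 54.0% and 71.0% of the summed TPM of the 3 ligands in control libraries 1, 2 and 3 and 67.3% in DMHCA libraries 1 and 3 together. In DMHCA library 2 its share was 40.1%, and Tgfb1 was the largest part with 44.0%. Tgfb1 had a share of 21.7%, 35.0% and 21.6% in the controls and of 23.8% in DMHCA libraries 1 and 3. The remaining share, that of Tgfb2, was 8.91%, 11.0% and 7.40% in the controls, 8.93% in DMHCA libraries 1 and 3 and 15.9% in DMHCA library 2. DMHCA libraries 1 and 3 therefore had a ligand composition within the range of the controls, and DMHCA library 2 had one outside it for each ligand. The summed level of the ligands was 185, 64.2 and 117 TPM in the controls and 192, 178 and 191 TPM in DMHCA libraries 1, 2 and 3, so that control library 2 was the lowest.

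**Figure D2:**
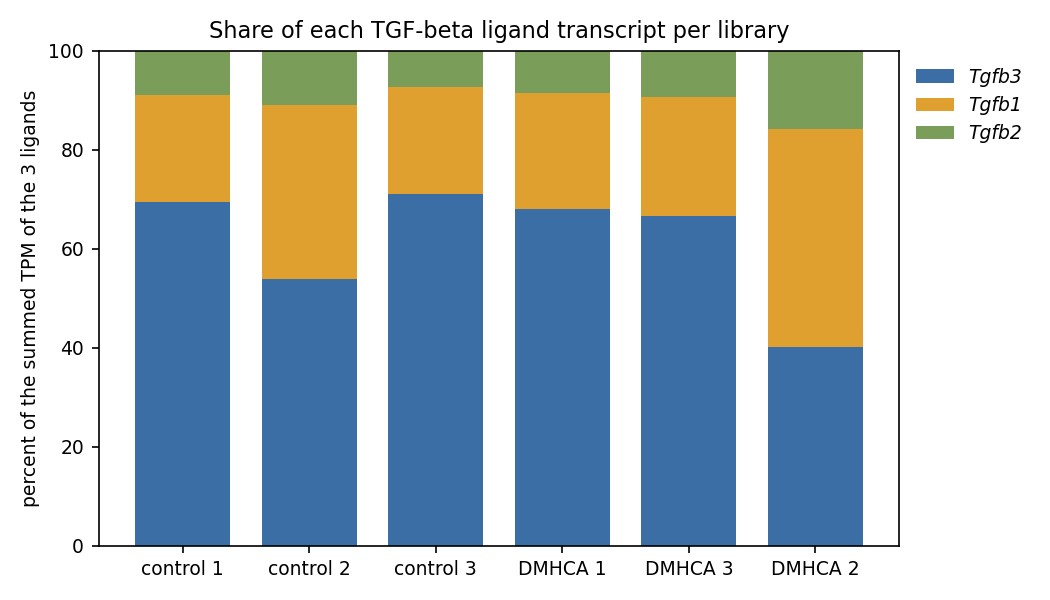
Share of Tgfb3, Tgfb1 and Tgfb2 in the summed TPM of the 3 ligands (vertical axis, percent) for each library on the horizontal axis. Tgfb3 is the largest part in every library except DMHCA library 2, where it is 40.1% and Tgfb1 is 44.0%.

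Among 123 tested genes of the lists used here, the one most like each ligand was sought by the root mean square difference of log2 normalized counts, each centred on its mean over the 5 samples. For Tgfb1 the nearest gene was Tgfb2 (0.15), followed by the endothelial marker Cdh5 (0.157) and by Erbb2 (0.169). For Tgfb2 the nearest gene was Erbb2 (0.08), the gene of the ErbB2 receptor, followed by Tgfb1. Erbb2 was at 439, 191 and 210 TPM in the controls, 415 TPM in DMHCA libraries 1 and 3 and 635 TPM in DMHCA library 2. Tgfb1, Tgfb2 and Erbb2 were thus all highest in DMHCA library 2 and lowest in control libraries 2 and 3, as was Cdh5. Reads of the rat transgene that match mouse Erbb2 would be included in its level, and their share was not analysed here. Tgfb3 had no gene closer than 0.33 (Fcgr1, an Fc receptor of macrophages).

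The signaling receptors differed less between samples than the ligands. Tgfbr2 (ENSMUSG00000032440, chromosome 9, 116084293 to 116175360, minus strand), the type II receptor that binds the ligand, was at 39.9, 33.3 and 34.0 TPM in the controls and at 46.1, 50.2 and 44.7 TPM in DMHCA libraries 1, 2 and 3. In TPM every DMHCA library was above every control library. In normalized counts the groups overlapped, with 8520, 10710 and 9005 in the controls, 9801 in DMHCA libraries 1 and 3 together and 9499 in DMHCA library 2. The log2 fold change in counts was 0.04 (standard error 0.26, unadjusted p = 0.893), and it was −0.04 without control library 1 and −0.01 with a stricter filter on low counts. On the log2(TPM + 1) scale the difference was 0.41, with an unadjusted p of 0.114 by limma.

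TPM, unlike counts, is divided by the transcript length that RSEM estimates for each library, and for Tgfbr2 this length differed between groups. The log2 ratio of the group means was 0.42 in TPM and 0.22 in normalized counts per kilobase. The mean length, weighted by the abundance of each transcript, was 5741, 6411 and 6601 bases in control libraries 1, 2 and 3 and 5577, 5429 and 5711 bases in DMHCA libraries 1, 2 and 3. It was shorter with DMHCA without overlap, control library 1 being the closest. In the annotation, Tgfbr2 has 2 protein-coding transcripts, of 3476 and 8092 bases, and the 3′ end of the longer one lies 4636 bases further. With these lengths, the long transcript was 49.1%, 63.6% and 67.7% of Tgfbr2 transcripts in the controls and 45.5%, 42.3% and 48.4% with DMHCA. The mean length did not overlap between groups for 4 of the 9 members with more than 1 transcript, each shorter with DMHCA (Tgfbr1, Tgfbr2, Eng and Smad7). Of the 14255 tested genes with a length that can vary, 14.7% were shorter and 11.1% longer without overlap. For Tgfbr1 this held only for the mean of DMHCA libraries 1 and 3, since DMHCA library 1 alone (5622 bases) was longer than control libraries 1 and 2 (5579 and 5591 bases). The length of Eng was 3353 to 3396 bases in the controls and 3261 to 3311 bases with DMHCA. That of Smad7 was 3855 to 4071 bases in the controls and 3527 to 3765 bases with DMHCA.

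Tgfbr1 (ENSMUSG00000007613, chromosome 4, 47353222 to 47414931, plus strand), the type I receptor that activates SMAD2 and SMAD3, was at 19.1, 10.9 and 19.0 TPM in the controls and at 14.7, 17.2 and 14.0 TPM with DMHCA. The DMHCA libraries lay between the lowest and the highest control. Tgfbr1 differed by a log2 fold change of −0.24 (standard error 0.26, unadjusted p = 0.379), and by −0.013 on the log2(TPM + 1) scale by limma. Acvrl1 (ENSMUSG00000000530, chromosome 15, 101128522 to 101145336, plus strand), the type I receptor that activates SMAD1 and SMAD5 in endothelial cells, was at 13.1, 9.45 and 13.7 TPM in the controls and at 14.8, 13.4 and 15.1 TPM with DMHCA. Acvrl1 overlapped between the groups, with a log2 fold change of 0.03 (standard error 0.28, unadjusted p = 0.904). The sign turned without control library 1 (−0.02), control library 2 (−0.01), DMHCA library 3 (−0.003) or DMHCA libraries 1 and 3 (−0.15), and with a stricter filter (−0.02). The genes most like Acvrl1 over the 5 samples were the macrophage genes Csf1r (0.14) and Adgre1 (0.16).

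Of the co-receptors, Eng (ENSMUSG00000026814, chromosome 2, 32646595 to 32682669, plus strand) differed most. Endoglin binds TGF-beta together with the type II receptor and, with ALK1, binds BMP9 and BMP10 on endothelial cells. Its level was 12.4, 10.6 and 11.4 TPM in control libraries 1, 2 and 3 and 51.8, 15.1 and 57.9 TPM in DMHCA libraries 1, 2 and 3. The high value came from DMHCA libraries 1 and 3, which are 1 sample, and DMHCA library 2 was only slightly above the highest control. Normalized counts of DMHCA libraries 1 and 3 together were 4.22 times the control mean, and those of DMHCA library 2 were 1.07 times the control mean, within the range of the controls, so that the groups overlapped in counts but not in TPM. Eng was the steadiest member among the controls, whose highest normalized count was 1.17 times the lowest.

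The log2 fold change of Eng was 1.41 (standard error 0.52, unadjusted p = 0.0335), and by edgeR's quasi-likelihood test the adjusted p was 0.644. Without DMHCA library 2 the log2 fold change was 2.12, and without DMHCA libraries 1 and 3 it was 0.09. In both cases 1 DMHCA sample was left, which was assumed to vary like the controls. By TPM, Eng ranked 9, 6 and 8 among the 10 members in control libraries 1, 2 and 3 and 8 in DMHCA library 2. In DMHCA libraries 1 and 3 its rank was 2, and only Tgfb3 was more abundant. The gene most like Eng was Acvr1b, the activin type I receptor ALK4 (0.40), followed by Hey1 (0.55) and Acvr2b (0.55). None was as close to Eng as Tgfb2 was to Tgfb1.

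Endothelial markers, of the cells in which Eng is best known, did not rise with it as a list. Of 12 endothelial markers tested, 1 was higher at an unadjusted p under 0.05 (Cdh5), 0 were lower, and the median log2 fold change was −0.01. This median was 0.125 without control library 3 and −0.165 without DMHCA libraries 1 and 3. In TPM, 4 of 12 were higher without overlap (Cdh5, Kdr, Tie1 and Robo4) and 1 was lower (Egfl7), against 20.3% and 6.97% of all genes tested. Their summed level was 129, 104 and 173 TPM in the controls and 127, 134 and 130 TPM in DMHCA libraries 1, 2 and 3, so that DMHCA libraries 1 and 3, high in Eng, were within the range of the controls. The most abundant was Egfl7, at 40.2, 30.2 and 54.6 TPM in the controls, 29.9 TPM in DMHCA libraries 1 and 3 and 27.6 TPM in DMHCA library 2. Cdh5, the cadherin of endothelial junctions, was at 9.63, 6.30 and 7.22 TPM in the controls, 13.2 TPM in DMHCA libraries 1 and 3 and 17.4 TPM in DMHCA library 2. Within the DMHCA group, Cdh5 was thus higher in library 2, where Eng was lower. In TPM, both genes were lower in every control than in either DMHCA sample. By normalized counts 1 of the 12, Robo4, was like Eng highest in DMHCA libraries 1 and 3, with 328, 450 and 449 in the controls, 544 in DMHCA libraries 1 and 3 and 450 in DMHCA library 2. Of all 19427 genes tested, 3791 were highest in DMHCA libraries 1 and 3. Kdr, Tie1 and Robo4 were chosen after their values were seen. None of the 12 was at 0 in any library. In such bulk tissue, fewer cells of a type and less RNA per cell cannot be told apart.

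The last exon of Eng overlaps that of Fpgs, the gene of folylpolyglutamate synthase, which lies on the opposite strand from 32682609 to 32704145. Eng ends at 32682669, so the overlap is limited to the bases from 32682609 to 32682669. The Eng transcripts that reach them have 3422 and 3403 bases. Exons of Tgfb2, Tgfb3 and Acvrl1 also overlap untested gene models on the opposite strand. Whether counting used strand is not given in the sources used here, so reads from the shared bases cannot be told apart. Fpgs had 1353, 1881 and 1118 normalized counts in the controls, 2413 in DMHCA libraries 1 and 3 and 1935 in DMHCA library 2. Within 250 kb of Eng, 18 other genes were tested, and their normalized counts in DMHCA libraries 1 and 3 were 0.606 to 2.24 times the control mean, with a median of 1.16. Genes named among them were chosen after their values were seen. St6galnac4 and St6galnac6, neighbors upstream of Eng that code for sialyltransferases, were 2.03 and 2.08 times the control mean in DMHCA libraries 1 and 3. Ak1, an adenylate kinase gene that lies between them and Eng, was at 0.785 times the control mean there. Its controls were at 1779, 6464 and 707.7 normalized counts, and DMHCA libraries 1 and 3, at 2342, lay between control libraries 1 and 2. The controls of St6galnac4 were at 5992, 8622 and 2275, against 11410 in DMHCA libraries 1 and 3. Those of St6galnac6 were at 4417, 5765 and 5530, against 10870. The highest ratio belonged to Gm13523, an antisense transcript with 5.69 to 19.6 normalized counts per sample.

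**Figure D3:**
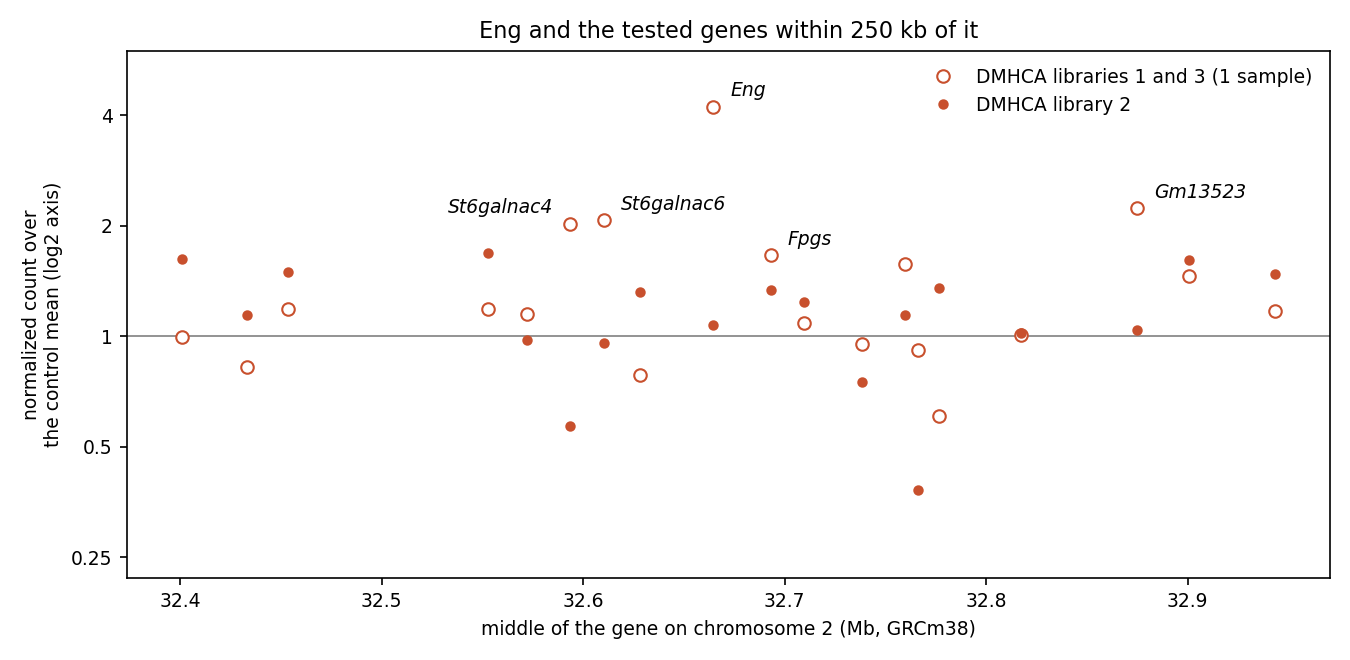
Normalized count relative to the control mean (vertical axis, log2 scale) for Eng and the 18 tested genes within 250 kb of it, placed by the middle of each gene on chromosome 2 (horizontal axis, Mb, GRCm38). Open circles are DMHCA libraries 1 and 3 taken as 1 sample and filled circles DMHCA library 2. Eng is at 4.22 in the former and at 1.07 in the latter.

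Betaglycan showed the reverse order within the DMHCA group. Tgfbr3 (ENSMUSG00000029287, chromosome 5, 107106570 to 107289629, minus strand), which presents TGF-beta2 to the signaling receptors, was at 16.0, 6.30 and 12.6 TPM in the controls and at 7.17, 23.5 and 6.97 TPM in DMHCA libraries 1, 2 and 3. DMHCA library 2 was above every control, and DMHCA libraries 1 and 3 were close to control library 2, the lowest. In normalized counts, DMHCA libraries 1 and 3 were below every control, at 1644 against 1907 in control library 2, and at 0.333 times the level of DMHCA library 2. Over the 5 samples its log2 fold change was 0.20 (standard error 0.50, unadjusted p = 0.706), which became −0.76 without DMHCA library 2, −0.03 without control library 2 and −0.05 in DESeq2 on the 6 libraries. An exon of Tgfbr3 overlaps the gene model Gm43422 on the same strand, so its counts are uncertain to that extent.

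Ltbp1 (ENSMUSG00000001870, chromosome 17, 75005568 to 75392512, plus strand), which tethers latent TGF-beta to the matrix, followed Tgfbr3. It was at 17.3, 10.0 and 21.5 TPM in the controls and at 13.9, 25.5 and 14.8 TPM with DMHCA. DMHCA library 2 was again the highest, and in TPM DMHCA libraries 1 and 3 lay between control libraries 1 and 2. In normalized counts they were together at 1414, below every control (2360, 1505 and 2152). Tgfbr3 and Ltbp1 were each other's most similar gene, with a root mean square difference of 0.15. The log2 fold change of Ltbp1 was 0.45 (standard error 0.47, unadjusted p = 0.364), and without DMHCA library 2 it was −0.46.

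Smad7 (ENSMUSG00000025880, chromosome 18, 75367529 to 75395935, plus strand), an inhibitory SMAD that blocks type I receptors and is itself induced by TGF-beta, was the member with the lowest log2 fold change. It was at 11.8, 12.9 and 7.35 TPM in the controls and at 8.84, 9.86 and 8.24 TPM with DMHCA. The DMHCA libraries were below control libraries 1 and 2 and above control library 3. In normalized counts, DMHCA libraries 1 and 3 (1183) and DMHCA library 2 (1191) were at the level of control library 3 (1183), and control libraries 1 and 2 were at 1664 and 2486. For Smad7, edgeR gave −0.58 as the log2 fold change (standard error 0.37, unadjusted p = 0.159), −0.81 without control library 3 and −0.26 without control library 2. The difference was smaller on the log2(TPM + 1) scale, at −0.164 by limma. Its most similar gene was Timp1 (0.12).

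Within a sample, Tgfb3, Tgfb1 and Tgfbr2 held the first 3 ranks by TPM in 4 of 5 samples, with Eng in place of Tgfbr2 in DMHCA libraries 1 and 3. Over the 5 samples the mean level was 89.3 TPM for Tgfb3, followed by Tgfb1 (42.4) and Tgfbr2 (40.6), which did not differ beyond the spread between samples. Eng had a mean of 20.9 TPM, which rests on DMHCA libraries 1 and 3, as it was at 10.6 to 15.1 TPM in the other samples. The remaining members had mean levels between 10.1 TPM (Smad7) and 17.7 TPM (Ltbp1), and those of Tgfb2 (15.5), Tgfbr1 (16.1) and Ltbp1 were likewise closer together than their SD. Ltbp1 and Tgfbr3 had SD of 5.79 and 4.94 TPM in the controls.

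Other genes of the pathway were counted in 5 lists, in which 0 genes had an adjusted p under 0.05 in edgeR. Of 8 related receptors, 1 was higher and 1 lower at an unadjusted p under 0.05. Acvr1b, the receptor most like Eng, was at 23.9, 13.5 and 13.2 TPM in the controls, 49.4 TPM in DMHCA libraries 1 and 3 and 27.2 TPM in DMHCA library 2. Both DMHCA samples were above the controls, with a log2 fold change of 1.02 (standard error 0.38, unadjusted p = 0.0322), and without DMHCA libraries 1 and 3 the log2 fold change was 0.431 (unadjusted p = 0.328). Acvr1c, the type I receptor ALK7 known from fat cells, was nearly absent, at 0.18, 0.02 and 0.49 TPM in the controls and at most 0.02 TPM with DMHCA. Acvr1c was the lower gene of the list, but it passed the filter on low counts only through control libraries 1 and 3, with 55 and 167 expected counts, so nothing is read from its test. Bmpr1a, a type I receptor for bone morphogenetic proteins, was the most abundant of the list, at 26.8 to 34.6 TPM in the controls and 29.9 and 35.3 TPM in the DMHCA samples.

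Of 12 genes of latency and activation, 1 was higher at an unadjusted p under 0.05 and 0 were lower. Ltbp2, a matrix protein of the Ltbp1 family, was at 80.4, 28.1 and 52.7 TPM in the controls, 149 TPM in DMHCA libraries 1 and 3 and 103 TPM in DMHCA library 2, with a log2 fold change of 1.03 (standard error 0.39, unadjusted p = 0.0343), and without DMHCA libraries 1 and 3 it was 0.689 (unadjusted p = 0.212). Fbn1, the fibrillin to which latent complexes attach, was at 16.2, 8.21 and 11.5 TPM in the controls and 17.8 and 24.3 TPM in the DMHCA samples. Its log2 fold change was 0.64 (standard error 0.28, unadjusted p = 0.0569). Ltbp3 was the most abundant of these genes, at 111 to 219 TPM in the controls and 117 and 163 TPM in the DMHCA samples.

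Of 14 signal transducers and brakes, 13 were tested and 0 had an unadjusted p under 0.05 in either direction. Smad9 was at 0 in some libraries and was not tested. The smallest p-values were those of Smurf1 (0.135), a ubiquitin ligase that targets the receptors together with Smad7, and Ski (0.154), a SMAD corepressor. Pmepa1, a TGF-beta induced inhibitor and the most abundant of the list, was at 157, 96.9 and 91.4 TPM in the controls, 188 TPM in DMHCA libraries 1 and 3 and 59.4 TPM in DMHCA library 2. Like Eng and Tgfb3, it was higher in DMHCA libraries 1 and 3 than in DMHCA library 2.

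Of 15 genes known to respond to TGF-beta, 0 were higher and 1 was lower at an unadjusted p under 0.05, and the median log2 fold change was −0.05. This median was −0.261 without control library 2, 0.025 without control library 3 and −0.176 without DMHCA libraries 1 and 3. Tgfbi, a matrix protein named for its induction by TGF-beta, had 3260, 2848 and 3494 normalized counts in the controls, 2261 in DMHCA libraries 1 and 3 and 1771 in DMHCA library 2, with a log2 fold change of −0.67 (standard error 0.25, unadjusted p = 0.0353). In TPM the groups overlapped for Tgfbi, at 33.6, 21.7 and 33.5 TPM in the controls, 22.6 TPM in DMHCA libraries 1 and 3 and 19.4 TPM in DMHCA library 2, and limma on log2(TPM + 1) gave a difference of −0.45 (unadjusted p = 0.175). In counts, the log2 fold change of Tgfbi was −0.662 without control library 1 (unadjusted p = 0.0962), −0.746 without control library 2 (0.0321) and −0.603 without control library 3 (0.087). It was −0.46 without DMHCA library 2 (0.231) and −0.865 without DMHCA libraries 1 and 3 (0.0502). Timp1, an inhibitor of matrix metalloproteinases, was at −0.65 on the log2 fold change scale (standard error 0.35, unadjusted p = 0.109). Col3a1, a fibrillar collagen and the most abundant of the list, was at 266, 133 and 422 TPM in the controls and 282 and 257 TPM in the DMHCA samples, inside the range of the controls. Of 6 genes known to respond to ALK1, 0 had an unadjusted p under 0.05, and the median log2 fold change was −0.04. This median depended on single samples, at 0.242 without DMHCA library 2 and −0.284 without DMHCA libraries 1 and 3. It was −0.267 without control library 2 and 0.084 without control library 3. Among the 6 genes, Id3 had a log2 fold change of −0.52 and Id2, the most abundant, one of 0.30, with standard errors of 0.44 and 0.27.

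Markers of the other cell types a tumor can hold were summed in each library, and their part in the levels of the 10 genes was not tested. The 8 fibroblast markers had 0 genes with an unadjusted p under 0.05 and a median log2 fold change of −0.73, which was −0.14 without control library 3. Dcn was the most abundant, and control library 3 was the highest with 521 TPM of Dcn. Tgfb1, Tgfb2 and Tgfb3 were not highest in control library 3. Of 8 macrophage markers, 1 was lower at an unadjusted p under 0.05 (Aif1). Their summed level was 146, 121 and 232 TPM in the controls and 167, 138 and 166 TPM in DMHCA libraries 1, 2 and 3, Cd68 being the most abundant.

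Lymphocyte markers separated control library 3 from all others. The 8 markers summed to 53.9, 9.10 and 359 TPM in the controls and 19.5, 15.6 and 18.7 TPM with DMHCA, with Ptprc the most abundant, and 3 of 8 were lower at an unadjusted p under 0.05. The median log2 fold change of the 8 was −3.76, and it was −1.03 without control library 3. Adipocyte markers were the one list in which every gene was lower without overlap in normalized counts. At an unadjusted p under 0.05 there were 5 of 5, but this count includes Lep, which is set aside below. The median log2 fold change was −4.87, which is the value of Lep itself, and −3.50 without control library 3. The other genes of the list lay between −5.07 (Cidec) and −2.57 (Fabp4). The 5 summed to 203, 123 and 914 TPM in the controls and 68.8, 68.8 and 68.7 TPM with DMHCA. Fabp4 was the most abundant, and Lep was at 0 in DMHCA library 3. Expected counts of Lep were 276, 123 and 658 in the controls and 14, 18 and 0 in DMHCA libraries 1, 2 and 3. As they were high only in the controls, nothing is read from its test. The FABP4 promoter also drives the caspase transgene, which mice of both groups carry.

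The 6 myoepithelial markers summed to 15.7, 3.31 and 63.6 TPM in the controls and 12.1, 3.36 and 12.2 TPM with DMHCA. Krt14 was the most abundant, and 1 of 6, Trp63, was lower at an unadjusted p under 0.05. Their median log2 fold change was −2.08, and −0.65 without control library 3. Of 8 epithelial markers, 0 had an unadjusted p under 0.05, the most abundant was Krt18, and the smallest p was that of Krt19 (0.082), at 43.9 TPM or less in every library except control library 3 (435 TPM). The 5 skeletal muscle markers summed to 562, 1021 and 699 TPM in the controls and 844, 247 and 912 TPM with DMHCA, with 0 at an unadjusted p under 0.05, Tnnt3 as the most abundant and Mylpf as the gene with the smallest p (0.302). Muscle markers were thus lowest in DMHCA library 2, where Tgfb1, Tgfb2, Tgfbr3 and Ltbp1 were highest.

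Promoter sequences from RefSeq (GRCm38.p6), 250 bases before to 50 bases after the start of transcription, were matched for 6 of 10 members (Tgfb1, Tgfb2, Tgfbr1, Tgfbr2, Eng and Ltbp1), and those of Tgfb3, Tgfbr3, Acvrl1 and Smad7 were not used here. Those of Tgfb1 and Tgfb2, which were highest in DMHCA library 2, and of Eng, which was highest in DMHCA libraries 1 and 3, are shown. Each was searched on both strands for AGGTCA, the element to which nuclear receptors such as LXR bind, and for its direct repeat with a spacer of 4 bases of any kind (N). Neither was found in the promoters of the matched members, and they are held by 16.3% and 0.0152% of 32851 promoters. The letters CAGAC, which contain the core that SMAD proteins bind, occur in 49.6% of promoters, and GGGCGG, the GC box bound by Sp1, occurs in 35.7%. GTCTAGAC, the palindrome of that core (0.213%), and TGACTCA, the AP-1 site (5.20%), were not found in the matched members. Capitals mark CAGAC and GGGCGG on either strand. Tgfb1 has 6 GGGCGG and 77.0% G or C, Tgfb2 has 2 CAGAC and 54.3% G or C, and Eng has 2 CAGAC and 63.3% G or C. The sequences are from chr7:25686752-25687051 (plus strand), chr1:186705940-186706239 (minus strand) and chr2:32646345-32646644 (plus strand). A match of these letters is a description and does not show that a factor binds there.
Tgfb1: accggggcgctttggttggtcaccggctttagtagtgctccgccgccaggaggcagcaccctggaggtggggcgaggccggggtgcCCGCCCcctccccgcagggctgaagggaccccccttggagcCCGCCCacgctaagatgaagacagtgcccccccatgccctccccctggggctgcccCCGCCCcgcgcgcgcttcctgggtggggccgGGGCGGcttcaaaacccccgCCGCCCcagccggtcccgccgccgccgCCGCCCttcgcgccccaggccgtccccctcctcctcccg
Tgfb2: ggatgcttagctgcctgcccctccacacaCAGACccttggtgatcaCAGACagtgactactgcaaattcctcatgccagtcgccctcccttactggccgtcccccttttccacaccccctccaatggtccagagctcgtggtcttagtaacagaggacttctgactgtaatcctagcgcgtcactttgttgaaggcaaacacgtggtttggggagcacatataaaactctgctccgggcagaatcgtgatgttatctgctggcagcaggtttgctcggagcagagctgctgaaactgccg
Eng: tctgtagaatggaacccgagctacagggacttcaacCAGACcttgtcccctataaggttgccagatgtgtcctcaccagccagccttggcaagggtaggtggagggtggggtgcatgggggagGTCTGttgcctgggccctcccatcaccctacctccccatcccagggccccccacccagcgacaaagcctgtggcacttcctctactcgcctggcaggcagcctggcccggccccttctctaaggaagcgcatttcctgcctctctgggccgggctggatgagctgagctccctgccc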

How the data were processed

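Tumor RNA of 3 control and 3 DMHCA libraries was analysed. The authors checked reads with FastQC 0.11.9, trimmed them with cutadapt 2.9 and counted them on Ensembl mouse genes (mm10) with RSEM 1.3.1 and Bowtie2 2.4.1, per the submitters' processing notes. The deposited expected counts are RSEM's read estimates per gene without normalization, and 19.6% to 23.5% per library were not whole. The deposited TPM were computed by RSEM in the authors' hands, per transcript length and with 1 sum for all libraries. FPKM were not used here. Total expected counts were 53939201, 63420620 and 46358654 in control libraries 1, 2 and 3 and 55539411, 52755446 and 52330938 in DMHCA libraries 1, 2 and 3. Mapping, and how reads were split among similar genes, could not be changed here.

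Members and gene lists were chosen with earlier results of these data known. Expected counts were rounded, and DMHCA libraries 1 and 3 were summed to 1 sample (in TPM, averaged). The groups were then tested with edgeR 4.0.16 under R 4.3.3 (TMM, filterByExpr with a minimum count of 10 and total of 15, quasi-likelihood F-test, Benjamini-Hochberg adjustment over 19427 genes). Standard errors are the log2 fold change over the square root of F. Normalized counts are scaled to the mean effective library size. Mice are not named in the labels, and the study describes tumors of 3 mice per group. As DMHCA libraries 1 and 3 were nearly identical, p-values are taken to measure the spread between these samples. Named genes were the members, the most abundant gene of each list, the 2 (pathway lists) or 1 (marker lists) with the smallest p, and the 3 listed genes most like each member. Of the named genes, 1 is not reported here. Alternatives were DESeq2 1.42.0, limma 3.58.1 on log2(TPM + 1) or log2(TPM + 0.1), other normalization and filters, a replicate block and left-out libraries. Gene coordinates and transcripts are those of GENCODE M21 on GRCm38, in which 99.8% of 34034 genes with 1 transcript had the length given in the deposited tables. The share of the long Tgfbr2 transcript follows from the mean length and the lengths of both transcripts. Plots were drawn with matplotlib.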

Additional observations from a re-analysis of the deposited data

How the results depend on the processing

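Of the 10 members, 5 (Tgfb1, Tgfb2, Tgfbr1, Eng and Smad7) kept their direction in all 16 alternative fits, of which 7 left out libraries. Over all members, 143 of 160 alternative log2 fold changes kept direction and side of the threshold of an adjusted p of 0.05. The exceptions were Eng in DESeq2 on the 6 libraries (log2 fold change 1.68, adjusted p 0.0347) and 16 changes of sign. In fits that kept all libraries, these were Tgfbr3 in DESeq2 on the 6 libraries (−0.054), in edgeR on the 6 libraries (−0.08) and with a replicate block (−0.279), Ltbp1 with that block (−0.012), and Tgfbr2 (−0.011) and Acvrl1 (−0.015) with a minimum count of 50. With libraries left out in turn, log2 fold changes ranged from −0.41 to 0.63 for Tgfb3, from −0.038 to 0.14 for Tgfbr2, from −0.76 to 0.77 for Tgfbr3, from −0.15 to 0.24 for Acvrl1 and from −0.46 to 1.01 for Ltbp1. The cause was not tested. Leaving out DMHCA library 2, or DMHCA libraries 1 and 3, left 1 DMHCA sample, which was assumed to vary like the controls.

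Genes with an adjusted p under 0.05 numbered 0 in edgeR, 16 without a filter on low counts, 244 in DESeq2 on 5 samples and 882 in DESeq2 on the 6 libraries, where 1 member passed. In limma on log2(TPM + 1) and log2(TPM + 0.1) they numbered 0, with 1417 and 1469 genes at an unadjusted p under 0.05, and 4 members did not overlap on either scale, where 27.3% of all genes did not. With libraries left out in turn, 0 to 3 members had an unadjusted p under 0.05, as did 918 to 1800 of all genes (4.26% to 9.40%), and 2 to 7 members did not overlap, where 25.7% to 56.1% of all genes did not.

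Control and DMHCA libraries share replicate numbers. Libraries with the same number correlated at −0.05, 0.32 and 0.33 in their deviations from the group means, so the numbers were not taken as pairs, and not every library correlated best with its own number. With the number as a replicate block, edgeR on the 6 libraries gave 0 genes with an adjusted p under 0.05, as without the block.

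Of 46 other named genes, 683 of 732 alternative values kept direction and side of the threshold, 7 gained significance and 42 changed sign. Acvr1c had no value without control library 1, without control library 3 or in either edgeR fit of the 6 libraries. Its counts did not pass the filter there. The values that gained significance were all in DESeq2, among them Trp63 (adjusted p 0.0185) and Fabp4 (0.00427) on the 6 libraries. Acvr1c and Lep also passed, on 5 samples and on the 6 libraries. As their counts were high only in controls, nothing is read from their tests. In limma on log2(TPM + 1) and log2(TPM + 0.1), Bmpr1a (0.121 and 0.125), Col3a1 (0.124 and 0.125), Cd68 (0.16 and 0.166), Id1 (0.059 and 0.063), Esam (0.108 and 0.116), Col1a2 (0.184 and 0.185), Adgre1 (0.163 and 0.175), Smurf2 (0.037 and 0.038) and Epcam (0.127 and 0.127) turned positive. The medians over all genes tested were 0.108 and 0.162 in these limma fits, and the positive values are read against this shift of TPM. Pmepa1 was at 0.072 in DESeq2 and 0.050 in edgeR on the 6 libraries. Cd68 was at 0.051 with the replicate block and Fcgr1 at −0.001 with a minimum count of 50. With libraries left out in turn, values ranged from −1.464 to 0.512 for Pmepa1, −0.42 to 0.024 for Ltbp3, −0.394 to 0.227 for Col3a1, −0.292 to 0.389 for Cd68, −2.202 to 0.014 for Tnnt3, −0.256 to 0.332 for Fcgr1, −0.294 to 0.056 for Id1, −0.263 to 0.011 for Esam, −0.101 to 0.708 for Pdgfrb, −0.261 to 0.111 for Col1a2, −0.284 to 0.727 for Hey1, −0.327 to 0.841 for Acvr2b, −0.457 to 0.05 for Csf1r, −0.237 to 0.104 for Adgre1 and −0.328 to 0.102 for Epcam.

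By expected counts in place of TPM, the mean share of Tgfb1 among the ligands was 17.4% in the controls (26.1% by TPM), and that of Tgfb2 was 13.0% in the controls (9.11%) and 17.8% with DMHCA (12.4%), since counts grow with transcript length. In DMHCA library 2, where Tgfb1 was the largest part by TPM, Tgfb3 was larger by expected counts (8158, against 5523 for Tgfb1). Each member had at least 1093 expected counts in every library.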

Other observations

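Acvrl1 and Acvr1b are neighbors on the plus strand of chromosome 15, Acvr1b lying at 101174067 to 101213684. Normalized counts of Acvr1b were 3894, 2958 and 2316 in control libraries 1, 2 and 3, 8266 in DMHCA libraries 1 and 3 together and 4159 in DMHCA library 2. Acvrl1 had 1154, 1160 and 1392 in the controls, 1413 in DMHCA libraries 1 and 3 and 1118 in DMHCA library 2, so the pattern of Acvr1b was not seen in the gene beside it.

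The mean transcript length of Ltbp1 varied more than that of the other members. It was 3722, 3082 and 2598 bases in the controls and 2796, 4626 and 2543 bases in DMHCA libraries 1, 2 and 3, so that DMHCA library 2, with the most Ltbp1, also had the longest mean length. The annotation lists 10 transcripts of Ltbp1, of 246 to 6671 bases, and which of them changed was not tested.

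DMHCA is represented by 2 samples, and the difference in Eng rests on 1 of them. The libraries were made from whole tissue, so the cells that contain each transcript are not known, and protein, receptor activity and SMAD phosphorylation were not measured.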
